A study of Mus musculus and Homo sapiens with 20 samples.

Results

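The genes described here make sterols and fatty acids, or sense and export sterols. They were chosen by name: 39 listed symbols, which stand for 37 genes once the human and mouse names of CYP51A1/Cyp51 and SCD/Scd1 are joined, were looked up in the gene tables of 3 cell lines. The list holds 18 sterol synthesis enzymes, 5 genes of the SREBP system, the sterol carrier gene STARD4, 8 genes of fatty acid synthesis, the LXR receptor genes NR1H2 and NR1H3, and the LXR target genes ABCA1, ABCG1 and MYLIP. It matched 40 of 63568 rows of the K562 table and 37 of 43626 rows of each mouse table. The 3 surplus K562 rows were second rows for ACLY, EBP and NSDHL that held no counts.

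RNA-seq counts came from K562, a human leukaemia line from a chronic myeloid case, from MEF, mouse embryonic fibroblasts, and from HPC-7, a mouse blood precursor line. The HSP90i cells of each line received NVP-AUY922, which blocks the HSP90 chaperones, for 16 h. The dose was 50 nM in HPC-7, 200 nM in MEF and 300 nM in K562. The Control cells were those whose count columns are named for the solvent DMSO. Each group had 3 libraries, and since line, species and dose changed together their parts in a difference between lines cannot be told apart. The labels name no separate cultures, so p-values speak only of the spread among these libraries, which may be technical.

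Cells control their cholesterol through SREBP transcription factors, which are held in the endoplasmic reticulum by SCAP and INSIG proteins while sterol is plentiful and are carried to the Golgi and cut free when it is scarce. Freed SREBP switches on the genes of cholesterol and fatty acid synthesis, and INSIG1 among them, which closes a feedback loop. LXR receptors respond to the opposite state: oxidised sterols bind them, and they switch on genes of sterol export, such as ABCA1 and ABCG1, and MYLIP, whose protein removes a receptor for lipoprotein uptake. SREBF1 and FASN are known to answer to both systems.

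The libraries held 10131491 to 16859394 counts for HPC-7, 10542305 to 22872539 for MEF and 7936066 to 10950573 for K562. The heat shock genes HSPH1 and HSPA8, which mark exposure to the drug, were higher in HSP90i than in Control cells of every line, by 0.94 ± 0.08 and 1.60 ± 0.08 in HPC-7, 1.78 ± 0.05 and 2.52 ± 0.07 in MEF, and 4.34 ± 0.14 and 3.91 ± 0.13 in K562 (log2 fold change ± SE). Levels are scaled counts (CPM, counts over the scaled library size, after TMM scaling within a line), and n = 3 libraries per group throughout. All 10 fibroblast markers were tested in MEF, with 5 called higher and 3 lower. They had a summed level of 24554 to 25424 CPM in HSP90i and 19358 to 20593 CPM in Control libraries. In HPC-7, 1 of them was tested and called higher, and the list summed to 268 to 310 CPM in HSP90i and 179 to 203 CPM in Control libraries. All 10 blood precursor markers were tested in HPC-7, with 6 called higher and 2 lower, and 9 of 10 in K562, with 0 higher and 3 lower. They summed to 4759 to 5214 CPM in HSP90i and 3051 to 3095 CPM in Control libraries of HPC-7. The K562 sums were 754 to 793 CPM in HSP90i and 1060.5 to 1092 CPM in Control libraries. In MEF 3 were tested, with 1 higher and 2 lower, and the sums were 195 to 213 CPM in HSP90i and 224 to 271 CPM in Control libraries. Adipocyte markers, of cells rich in lipid synthesis, were all at 0 in K562, and their 6 genes summed to at most 4.74 CPM in any MEF library and 1.37 CPM in any HPC-7 library. Of 4 erythroid markers tested in HPC-7, 3 were called higher, among them Epor and Gata1 at 1.10 ± 0.10 and 2.21 ± 0.12. Tfrc, which encodes the transferrin receptor, was lower (−3.14 ± 0.30). Tfrc was abundant, so that the sum of the list was 208 to 221 CPM in HSP90i and 438 to 444 CPM in Control libraries. Tfrc was also the 1 erythroid marker tested in MEF, and was lower there (−1.53 ± 0.11). In K562 the erythroid markers summed to 1718 to 1946 CPM in HSP90i and 2049 to 2103 CPM in Control libraries, with 1 of 10 lower. Macrophage markers summed to 13.5 to 15.8 CPM in HSP90i and 16.03 to 18.7 CPM in Control libraries of MEF, where Csf1r and Cd68 were higher (1.17 ± 0.18 and 1.11 ± 0.20) and Cd14 was lower (−2.00 ± 0.14). They summed to 4.997 to 9.23 CPM in HSP90i and 3.76 to 4.79 CPM in Control libraries of HPC-7, with 1 of 2 higher, and to at most 1.55 CPM in any K562 library. Epithelial markers summed to 18.8 to 19.7 CPM in HSP90i and 7.0001 to 7.61 CPM in Control libraries of MEF, with all 3 tested genes higher (Cdh1 at 3.79 ± 0.21). They summed to 628 to 697 CPM in HSP90i and 518 to 892 CPM in Control libraries of K562, and to at most 0.218 CPM in any HPC-7 library. The rule for a call and the shares of all tested genes called in each line are given below. The part of these marker shifts in the results below was not tested.

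Several libraries stood apart in some of these genes, and the counts of called genes are given with and without those described here. HSP90i library 2 of HPC-7 had the highest level of the 3 HSP90i libraries for 14 of the 18 sterol enzymes. Library 3 of MEF held traces of blood cell transcripts in both groups, with Kit at 0, 0 and 0.979 CPM in HSP90i libraries, against 0.0881, 0 and 7.32 CPM in Control libraries. Control library 1 of K562 had the lowest level of the 3 Control libraries for 7 of the 8 fatty acid genes and the highest for 11 of the 18 sterol enzymes. Library 1 of MEF was the deepest in both groups. It had the lowest of the 3 levels for 11 of the 18 sterol enzymes in each group. Control library 3 had the highest level of the 3 Control libraries for 12 of these enzymes in MEF and for 11 in HPC-7.

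The 3 lines took different courses. In both mouse lines HSP90i cells held much less mRNA of most sterol enzymes than Control cells. They held more of the listed LXR targets that were tested, 3 in HPC-7 and 2 in MEF. Arl4c and Lpcat3, LXR targets outside the list, each went in opposite directions in the mouse lines. In K562 5 of the 18 enzymes and 1 LXR target, ABCA1, were higher. The 18 sterol enzymes summed to 308, 418 and 299 CPM in the HPC-7 HSP90i libraries, against 1662, 1604 and 1636 CPM in the Control libraries. In MEF the sums were 1004, 1055 and 1067 CPM with HSP90i, against 2294, 2487 and 2375 CPM in the Control libraries. In K562 they were 978, 1037 and 975 CPM with HSP90i, against 936, 948 and 938 CPM in the Control libraries. The groups did not overlap in any line. The K562 difference was small and not one of the whole set: 13 of the 18 enzymes were not called there, the median log2 fold change of the 18 was 0.02, and the median of the enzymes relative to the Control mean overlapped between groups, at 0.03, 0.13 and −0.07 (log2) in HSP90i and 0.11, −0.06 and −0.07 in Control libraries. Since bulk libraries are scaled to a fixed total, fewer cells that make a transcript and less of it per cell cannot be told apart.

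**Figure D1:**
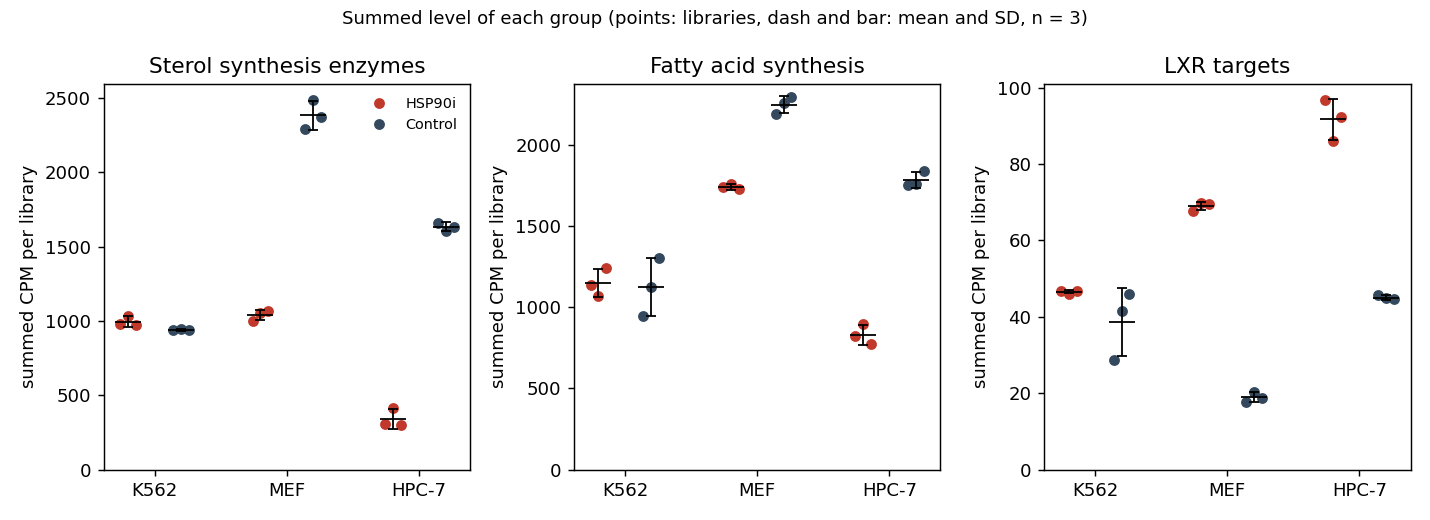
Summed CPM of the 18 sterol synthesis enzymes, the 8 fatty acid synthesis genes and the 3 LXR targets in each library, HSP90i left of Control in each line. Points are libraries, and the dash and bar are the mean and SD of 3. Sterol enzymes averaged 342 ± 66.1 CPM in HSP90i and 1634 ± 29.1 CPM in Control libraries of HPC-7, and LXR targets 69.0 ± 1.15 CPM in HSP90i and 18.9 ± 1.34 CPM in Control libraries of MEF.

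A gene was called where edgeR's quasi-likelihood test, fitted over all genes of a line with Benjamini-Hochberg adjustment, gave an adjusted p under 0.05. In K562, 7 of 36 tested members were called higher, which is 19.4% of them, where 5.11% of all tested genes were. None was called lower, where 5.97% of all tested genes were; at an unadjusted p under 0.05 there were 2, and DESeq2 called 0. In MEF, 24 of 35 tested members were called lower, or 68.6%, against 38.2% of all tested genes, and 9 were called higher, or 25.7%, against 35.1% of all. In HPC-7, 30 of 36 were called lower, or 83.3%, against 36.6% of all tested genes, and 6 higher, or 16.7%, against 36.5% of all. The median log2 fold change of the tested members was −1.45 in HPC-7, −0.94 in MEF and 0.06 in K562, where that of all tested genes was −0.00, −0.01 and −0.02.

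Without HSP90i library 2 or Control library 3 of HPC-7 the counts there were again 6 higher and 30 lower. Without Control library 3 or HSP90i library 3 of MEF they were 9 higher and 24 lower, as with all libraries. Leaving out Control library 1 of MEF gave 8 higher and 23 lower, and leaving out HSP90i library 1 gave 7 higher and 23 lower. K562 was less steady. Without its Control library 1, 9 members were called higher and 3 lower, while calls over all genes grew to 1922 higher and 1995 lower, against 688 and 803 with all libraries. Leaving out any other K562 library gave between 1 and 4 members higher and 0 lower.

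Over the lines, 18 genes were called lower in both mouse lines and were not called in K562. A further 5 were lower in both mouse lines and higher in K562. ABCA1 was the one listed gene called in the same direction in all 3 lines. The share of all genes with these patterns was not counted.

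**Figure D2:**
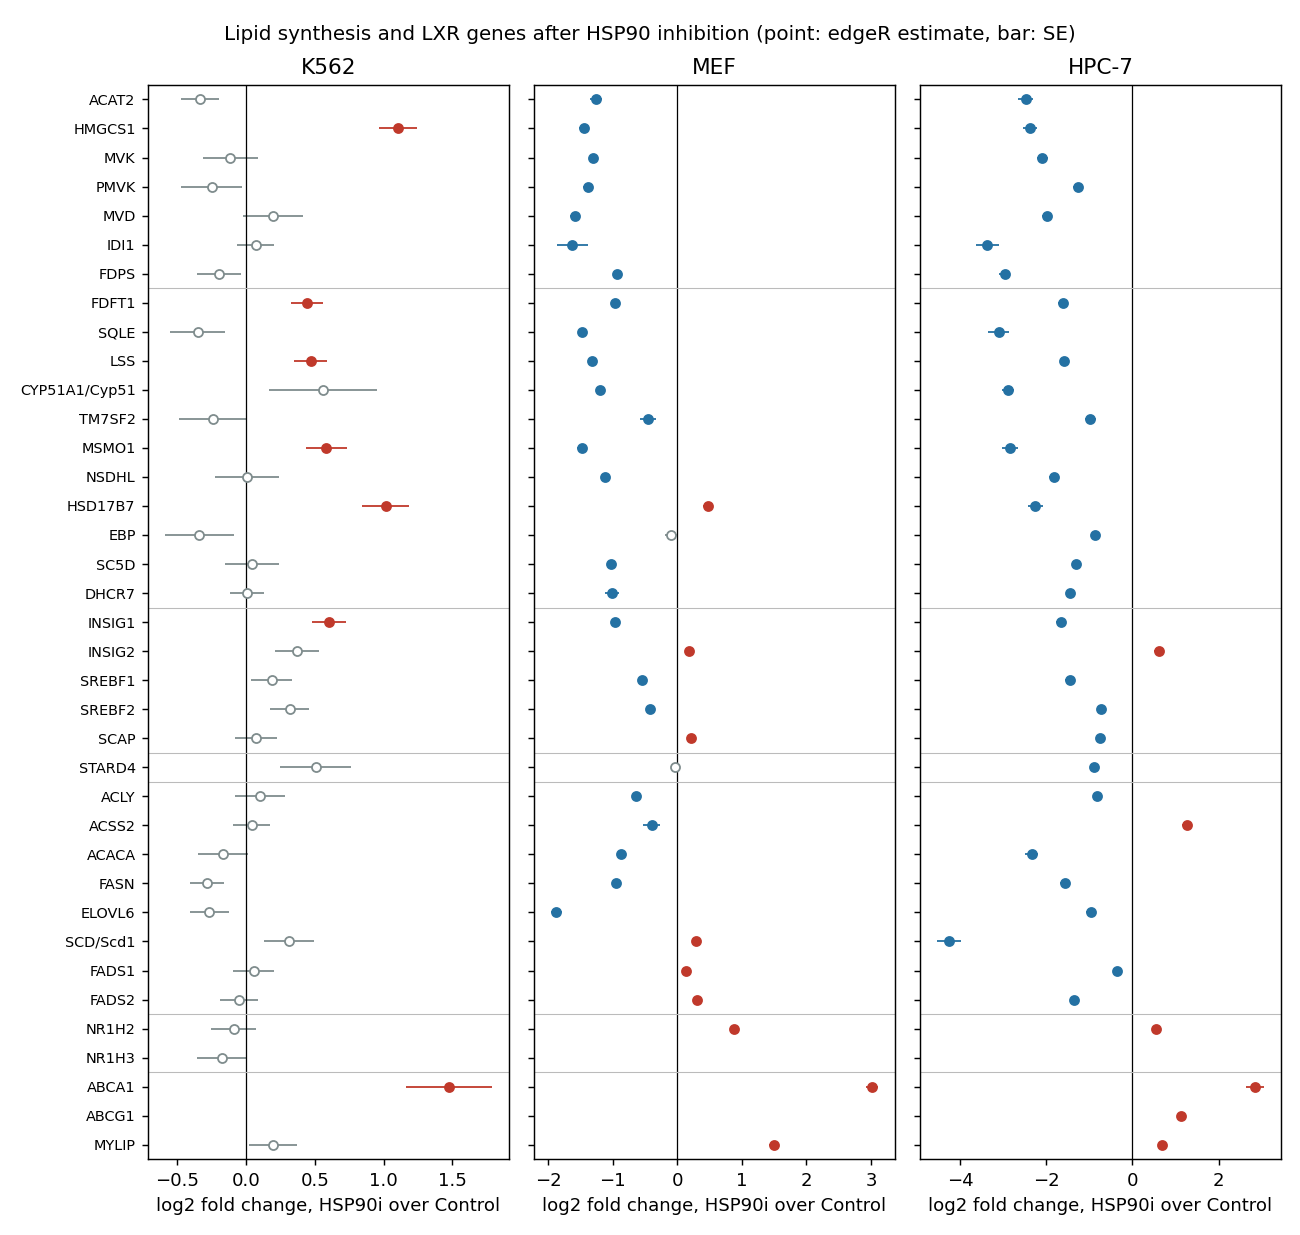
Log2 fold change (HSP90i over Control) of each tested gene and line, with its SE. Filled red points were called higher, filled blue points lower, and open grey points were not called. Grey lines part the roles, and the horizontal scale differs between the panels. Nearly all sterol enzymes lie left of 0 in both mouse lines, and ABCA1 lies right of 0 in all 3.

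Among the regulators, INSIG1 was lower with the enzymes in both mouse lines and higher in K562. This sterol-sensing anchor, itself an SREBP target, had 38.9, 45.4 and 37.2 CPM in HPC-7 HSP90i libraries, against 139, 120.5 and 127 CPM in Control libraries (log2 fold change −1.67 ± 0.10, adjusted p = 5.42e-07 by edgeR). MEF had 71.9, 74.03 and 78.3 CPM with HSP90i, against 140.5, 149 and 148 CPM in Control libraries (−0.97 ± 0.05, adjusted p = 5.24e-07). In K562 the values were 104, 114 and 102 CPM with HSP90i, against 65.03, 70.7 and 74.9 CPM in Control libraries (0.60 ± 0.13, adjusted p = 0.0199). All HSP90i libraries were below all Control libraries in the mouse lines and above them in K562. For this gene and those below, lack of overlap only describes the values. The share of all genes whose groups did not overlap was not counted. The K562 call was lost without Control library 2 or any single HSP90i library, with an adjusted p of up to 0.107.

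INSIG2, the anchor that does not depend on SREBP in the same way, went against INSIG1 in the mouse lines. Insig2 had 33.3, 33.6 and 40.9 CPM in HPC-7 HSP90i libraries, against 22.9, 24.6 and 23.04 CPM in Control libraries (0.61 ± 0.10). Its rise in MEF was small, with 47.6, 49.9 and 46.1 CPM in HSP90i and 39.6, 43.1 and 43.7 CPM in Control libraries (0.19 ± 0.06, adjusted p = 0.0231 by edgeR), and was not called without Control library 1 or HSP90i library 1 or 2. K562 INSIG2 was not called (0.37 ± 0.16).

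The genes of the SREBP factors themselves were lower in both mouse lines. SREBF1, whose products drive fatty acid and sterol synthesis, had 79.5, 93.96 and 71.6 CPM in HPC-7 HSP90i libraries, against 207, 226 and 239 CPM in Control libraries (−1.46 ± 0.10). In MEF, Srebf1 had 97.2, 93.5 and 94.2 CPM with HSP90i, against 139.7, 134 and 142 CPM in Control libraries (−0.55 ± 0.05). The groups were apart in both lines, and the HSP90i mean was 36.5% of the Control mean in HPC-7 and 68.4% in MEF. Srebf2, the factor of cholesterol synthesis, fell less, with 281, 267 and 239 CPM in HSP90i and 419.5, 426 and 449 CPM in Control libraries of HPC-7 (−0.72 ± 0.08). MEF Srebf2 had 317, 299 and 289 CPM with HSP90i, against 406, 394 and 416 CPM in Control libraries (−0.42 ± 0.05). Every HSP90i library lay below every Control library here too. In K562 neither was called, with SREBF1 at 0.19 ± 0.15 and SREBF2 at 0.32 ± 0.14. Without Control library 1, SREBF1 was called higher there, at 0.31 ± 0.10 (adjusted p = 0.0315 by edgeR). K562 SREBF2 had 357, 321 and 366 CPM in HSP90i and 238, 284 and 316 CPM in Control libraries, so that the groups did not overlap.

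SCAP, the escort that carries SREBP to the Golgi, was one of 6 genes called in opposite directions in the mouse lines. HPC-7 had 63.3, 62.1 and 56.3 CPM with HSP90i, against 92.3, 107 and 108 CPM in Control libraries (−0.75 ± 0.09). In MEF it had 108, 98.4 and 100.1 CPM with HSP90i, against 91.4, 82.03 and 91.1 CPM in Control libraries (0.21 ± 0.06, adjusted p = 0.0131 by edgeR), a call that was lost without HSP90i library 1. K562 SCAP was not called (0.07 ± 0.15). Of the 6 genes, Acss2 also lost its MEF call in several alternatives, and the share of all genes called in opposite directions was not counted.

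The first arm of the pathway, from acetyl units to the isoprenoid farnesyl diphosphate, was called lower in all 7 of its listed genes in both mouse lines. Of all tested genes, 36.6% were called lower in HPC-7 and 38.2% in MEF. The HSP90i means of this arm were 9.83% to 41.3% of the Control means in HPC-7 and 32.4% to 52.2% in MEF. Hmgcs1, which makes HMG-CoA, had 38.7, 64.96 and 47.3 CPM in HPC-7 HSP90i libraries, against 272, 261 and 247 CPM in Control libraries (−2.38 ± 0.16, adjusted p = 1.09e-06 by edgeR). In MEF it had 148, 157 and 166 CPM with HSP90i, against 397, 468 and 420.4 CPM in Control libraries (−1.45 ± 0.07, adjusted p = 2.77e-07). The opposite held in K562, where HMGCS1 had 103, 119 and 110.4 CPM with HSP90i, against 45.4, 52.4 and 57.3 CPM in Control libraries (1.10 ± 0.14, adjusted p = 0.00245). No HSP90i library overlapped a Control library in any line, and the K562 call held without any 1 library, with adjusted p between 4.88e-06 and 0.0262. The mouse gene lies at chr13:119690351-119708260 of GRCm38.p6.

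Mvd and Mvk, the decarboxylase and the kinase of mevalonate, were among the steadiest of this arm. Mvd had 9.88, 7.94 and 8.86 CPM in HPC-7 HSP90i libraries, against 33.6, 35.4 and 37.8 CPM in Control libraries (−1.99 ± 0.11). In MEF it had 16.6, 18.5 and 18.7 CPM with HSP90i, against 50.9, 56.2 and 54.2 CPM in Control libraries (−1.59 ± 0.07). Mvk had 5.89, 5.68 and 5.02 CPM in HSP90i and 21.8, 23.3 and 26.2 CPM in Control libraries of HPC-7 (−2.09 ± 0.13). HSP90i library 2 of HPC-7 did not stand out in these genes. MEF Mvk had 24.4, 26.01 and 27.2 CPM with HSP90i, against 64.5, 62.3 and 64.6 CPM in Control libraries (−1.31 ± 0.06).

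Fdps, which makes farnesyl diphosphate, had 16.6, 24.4 and 16.9 CPM in HPC-7 HSP90i libraries, against 151, 150.4 and 150.3 CPM in Control libraries (−2.97 ± 0.13). MEF Fdps was at −0.94 ± 0.06. Idi1, the isomerase just before it, showed the widest spread of the arm. It had 11.9, 28.5 and 12.1 CPM with HSP90i, against 189, 175 and 171 CPM in Control libraries of HPC-7 (−3.37 ± 0.27), and HSP90i library 2 lay 2.37 times above the mean of the other HSP90i libraries. Without that library the change was −3.90 ± 0.09. In MEF, Idi1 had 59.9, 52.1 and 71.7 CPM with HSP90i, against 203, 245 and 119 CPM in Control libraries (−1.63 ± 0.24). Control library 3, the one with blood cell traces, was the low one, and without it the MEF change was −1.83 ± 0.11. The remaining genes, Acat2 and Pmvk, were at −2.48 ± 0.18 and −1.27 ± 0.10 in HPC-7 and −1.26 ± 0.10 and −1.38 ± 0.08 in MEF. Acat2 overlaps another gene on the opposite strand and has a close copy in mouse, so its reads cannot be assigned with certainty.

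In K562, HMGCS1 was the 1 gene of this arm that was called. ACAT2 had 48.4, 58.00 and 54.3 CPM in HSP90i and 75.5, 62.4 and 65.03 CPM in Control libraries (−0.34 ± 0.14, adjusted p = 0.16 by edgeR), with no overlap. FDPS had 77.3, 87.00 and 77.7 CPM in HSP90i and 113, 84.4 and 79.97 CPM in Control libraries (−0.20 ± 0.16), with Control library 1 the highest, and was at −0.03 ± 0.09 without it.

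The second arm leads from squalene to cholesterol. All 11 of its listed genes were called lower in HPC-7, where 36.6% of all tested genes were. Their HSP90i means were 11.7% to 55.0% of the Control means. In MEF 9 were called lower (81.8%, against 38.2% of all tested genes), Hsd17b7 was higher and Ebp was not called. Sqle, the squalene epoxidase and a slow step of the pathway, had 114, 117 and 111 CPM in MEF HSP90i libraries, against 309.8, 321 and 325 CPM in Control libraries (−1.48 ± 0.04, adjusted p = 2.73e-08 by edgeR). In HPC-7 it had 12.4, 26.6 and 11.1 CPM with HSP90i, against 148, 135 and 144 CPM in Control libraries (−3.11 ± 0.25, adjusted p = 3.19e-06). The groups lay far apart in both, though HSP90i library 2 of HPC-7 held 2.25 times the mean of the other HSP90i libraries, and the change was −3.60 ± 0.10 without it.

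Cyp51, the demethylase of lanosterol, had 14.7, 22.3 and 14.98 CPM in HPC-7 HSP90i libraries, against 129.7, 122.8 and 129.9 CPM in Control libraries (−2.89 ± 0.14). MEF had 102, 111 and 108 CPM with HSP90i, against 225, 249 and 259 CPM in Control libraries (−1.19 ± 0.06). The Control libraries of HPC-7 differed little from each other, and the lowest of them held 5.50 times the highest HSP90i level. In K562 the human gene CYP51A1 was counted at only 3.41, 2.90 and 3.89 CPM with HSP90i and 0.984, 3.45 and 2.39 CPM in Control libraries, levels too low to show a difference of this size reliably (0.56 ± 0.39, not called).

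Msmo1, the sterol methyl oxidase, fell in both mouse lines and rose in K562. It had 69.97, 78.8 and 72.7 CPM in MEF HSP90i libraries, against 191, 211 and 215 CPM in Control libraries (−1.48 ± 0.07). In HPC-7 it was at −2.84 ± 0.19. K562 MSMO1 had 31.4, 34.6 and 27.1 CPM with HSP90i, against 18.5, 21.8 and 21.9 CPM in Control libraries (0.58 ± 0.15, adjusted p = 0.041 by edgeR). Lss, the cyclase that closes the sterol rings, did likewise, with 63.1, 62.05 and 65.4 CPM in HSP90i and 151, 160.0 and 164 CPM in Control libraries of MEF (−1.32 ± 0.05). HPC-7 Lss had 36.8, 38.9 and 31.9 CPM with HSP90i, against 106, 108 and 109.7 CPM in Control libraries (−1.59 ± 0.09). In K562 LSS had 88.7, 84.9 and 85.5 CPM with HSP90i, against 58.9, 65.8 and 62.5 CPM in Control libraries (0.47 ± 0.12, adjusted p = 0.0397). Both K562 groups were tight and apart.

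Fdft1, the squalene synthase, had 17.9, 16.1 and 18.3 CPM in HPC-7 HSP90i libraries, against 49.9, 52.5 and 58.9 CPM in Control libraries (−1.62 ± 0.10), and was at −0.97 ± 0.06 in MEF. In K562 FDFT1 had 111, 111 and 109 CPM with HSP90i, against 83.7, 77.3 and 83.2 CPM in Control libraries (0.44 ± 0.12, adjusted p = 0.0438 by edgeR). The K562 calls of FDFT1, LSS and MSMO1 were lost with scaling by library size alone, where the median of all K562 genes shifted to −0.13, and without any 1 library other than Control library 1.

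Hsd17b7, a sterol ketone reductase of the same arm, gave a pattern of its own. In HPC-7 it had 5.81, 8.72 and 4.57 CPM with HSP90i, against 32.2, 27.97 and 29.96 CPM in Control libraries (−2.25 ± 0.18). In MEF it had 78.9, 86.8 and 80.1 CPM with HSP90i, against 52.7, 62.5 and 62.3 CPM in Control libraries (0.47 ± 0.08, adjusted p = 0.000578 by edgeR). In K562 it had 25.9, 25.8 and 20.9 CPM with HSP90i, against 13.8, 11.99 and 10.04 CPM in Control libraries (1.02 ± 0.17, adjusted p = 0.00894). The HSP90i libraries were thus the higher ones in MEF and K562 and the lower ones in HPC-7, without overlap in any line. Without K562 HSP90i library 1 or 2 the adjusted p in K562 was 0.0608 or 0.0631. Mouse Hsd17b7 lies at chr1:169949535-169969242 of GRCm38.p6.

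The remaining genes of this arm, Tm7sf2, Nsdhl, Ebp, Sc5d and Dhcr7, ranged from −1.83 ± 0.12 for Nsdhl to −0.86 ± 0.09 for Ebp in HPC-7. In MEF they ranged from −1.12 ± 0.07 for Nsdhl to −0.10 ± 0.09 for Ebp, which was not called. Their K562 changes lay between −0.34 ± 0.25 for EBP and 0.04 ± 0.20 for SC5D, and none was called.

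**Figure D3:**
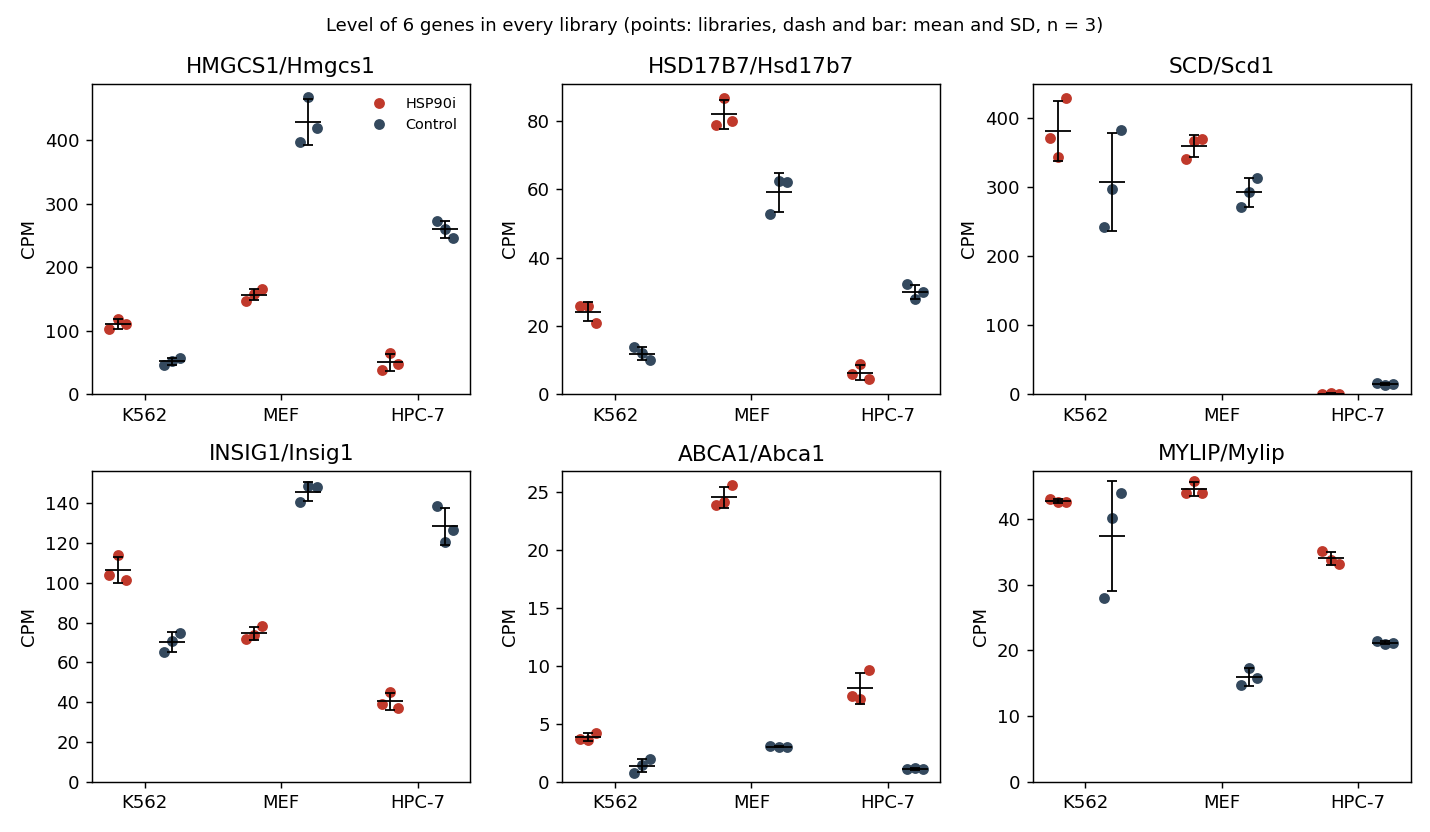
CPM of 6 genes in every library, HSP90i left of Control in each line. Points are libraries, and the dash and bar are the mean and SD of 3. HMGCS1/Hmgcs1 and INSIG1/Insig1 are higher with HSP90i in K562 and lower in both mouse lines, HSD17B7/Hsd17b7 is lower in HPC-7 only, SCD/Scd1 is near 0 in HPC-7 with HSP90i, and ABCA1/Abca1 is higher in all 3 lines.

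STARD4, a soluble carrier that moves cholesterol between membranes, differed in its response between the mouse lines. HPC-7 had 113, 129 and 120.2 CPM with HSP90i, against 231, 223 and 216 CPM in Control libraries (−0.89 ± 0.07). MEF had 140.2, 146 and 139 CPM with HSP90i and 137, 155 and 143 CPM in Control libraries (−0.03 ± 0.06, not called), with full overlap. K562 had 47.4, 56.1 and 58.4 CPM with HSP90i and 22.7, 41.6 and 49.7 CPM in Control libraries (0.51 ± 0.26, not called), where Control library 1 was the low one and the change without it was 0.25 ± 0.12.

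Fatty acid synthesis was lower in part. The 8 genes summed to 820.3, 894 and 772 CPM in HPC-7 HSP90i libraries, against 1750.4, 1759 and 1838 CPM in Control libraries. In MEF they summed to 1739.7, 1761 and 1725 CPM with HSP90i, against 2191, 2254 and 2296 CPM in Control libraries. The K562 sums overlapped, with 1135, 1069.7 and 1239 CPM in HSP90i and 947, 1128 and 1303 CPM in Control libraries. By gene, 7 of 8 were called lower in HPC-7 (87.5%, against 36.6% of all tested genes) and 1 higher (12.5%, against 36.5%). In MEF 5 were lower (62.5%, against 38.2%) and 3 higher (37.5%, near the 35.1% of all tested genes). In K562 0 were called in either direction, where 5.11% of all tested genes were higher and 5.97% lower. There 1 was lower at an unadjusted p under 0.05, and DESeq2 also called 0.

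Fasn, the fatty acid synthase, had 365, 361 and 344 CPM in MEF HSP90i libraries, against 678, 687 and 695 CPM in Control libraries (−0.95 ± 0.04, adjusted p = 1.42e-07 by edgeR). In HPC-7 it had 179.8, 229 and 163 CPM with HSP90i, against 534, 558 and 601 CPM in Control libraries (−1.57 ± 0.12). Acaca, the carboxylase that makes malonyl-CoA, had 38.8, 58.00 and 34.5 CPM with HSP90i, against 223, 219.5 and 222 CPM in Control libraries of HPC-7 (−2.34 ± 0.16). The groups of both genes were well apart. In MEF, Acaca had 91.9, 87.8 and 84.1 CPM with HSP90i, against 162, 155 and 166 CPM in Control libraries (−0.87 ± 0.05).

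Elovl6, which lengthens palmitate, had the lowest fold change of all members in MEF. It had 27.6, 28.3 and 28.5 CPM there with HSP90i, against 104, 114 and 90.3 CPM in Control libraries (−1.87 ± 0.09, adjusted p = 2.15e-07 by edgeR). The HSP90i libraries were close together and all below the Control libraries. HPC-7 Elovl6 was at −0.96 ± 0.11. Acly, which makes cytosolic acetyl-CoA from citrate, was at −0.81 ± 0.07 in HPC-7 and −0.64 ± 0.05 in MEF.

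The listed desaturases Scd1, Fads1 and Fads2 parted the mouse lines, while Scd2, outside the list, was lower in both. Scd1, which makes oleate from stearate, had the lowest fold change of all members in HPC-7, with 0.363, 1.47 and 0.639 CPM in HSP90i libraries, against 16.3, 14.1 and 14.9 CPM in Control libraries (−4.26 ± 0.28, adjusted p = 1.09e-06 by edgeR). These HSP90i levels rest on 5, 15 and 7 counts in the 3 libraries. Library 2 held the most, and without it the change was −4.94 ± 0.25. In MEF the gene was abundant and slightly higher, with 341, 367 and 369.9 CPM in HSP90i and 271, 293 and 314 CPM in Control libraries (0.30 ± 0.06, adjusted p = 0.00208). Fads2, which starts the making of long polyunsaturated fatty acids, had 59.7, 55.2 and 53.2 CPM in HSP90i and 140.2, 141 and 152 CPM in Control libraries of HPC-7 (−1.37 ± 0.08). MEF Fads2 had 261, 248 and 244 CPM with HSP90i, against 208, 195 and 207 CPM in Control libraries (0.30 ± 0.05). Fads1, which acts after it, was at −0.35 ± 0.07 in HPC-7 and 0.14 ± 0.04 in MEF. Scd1 lies at chr19:44394450-44407709 of GRCm38.p6 and has close relatives, so some of its reads could belong to them.

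Acss2, which makes acetyl-CoA from acetate, ran the other way. HPC-7 had 35.5, 30.2 and 35.4 CPM with HSP90i, against 13.1, 16.00 and 12.9 CPM in Control libraries (1.27 ± 0.12). MEF levels were low, with 6.77, 5.29 and 7.48 CPM in HSP90i and 8.54, 9.09 and 8.28 CPM in Control libraries (−0.40 ± 0.13, adjusted p = 0.0254 by edgeR). That MEF call was lost with DESeq2 (adjusted p = 0.124), with upper quartile scaling and without Control library 1 or 2 or HSP90i library 1 or 2. In K562 the smallest p of the group belonged to FASN, with 186, 166 and 173 CPM in HSP90i and 197, 211 and 233 CPM in Control libraries (−0.29 ± 0.12, adjusted p = 0.177), and ELOVL6 (−0.27 ± 0.14) and SCD (0.31 ± 0.18) followed. Without Control library 1, FASN and ELOVL6 were called lower in K562, at −0.34 and −0.38, and SCD was at 0.17 ± 0.11.

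The listed LXR targets were higher in HSP90i cells wherever they were called. ABCA1, the pump that loads cholesterol onto lipoproteins, had 23.8, 24.2 and 25.5 CPM in MEF HSP90i libraries, against 3.04, 3.03 and 2.95 CPM in Control libraries (3.02 ± 0.09, adjusted p = 3.1e-08 by edgeR). In HPC-7 it had 7.41, 7.15 and 9.59 CPM with HSP90i, against 1.06, 1.20 and 1.09 CPM in Control libraries (2.85 ± 0.21, adjusted p = 1.9e-06). In K562 it had 3.69, 3.60 and 4.23 CPM with HSP90i, against 0.787, 1.47 and 1.91 CPM in Control libraries (1.48 ± 0.31, adjusted p = 0.0216). The groups were apart in every line, and the HSP90i mean was 815% of the Control mean in MEF, 723% in HPC-7 and 277% in K562. The K562 level was low, at 39, 36 and 38 counts with HSP90i and 8, 17 and 16 counts in Control libraries, and the call there was lost without Control library 2 or any single HSP90i library. Mouse Abca1 lies at chr4:53030789-53159988 of GRCm38.p6.

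MYLIP, a ubiquitin ligase that marks the lipoprotein uptake receptor for breakdown, had 43.9, 45.7 and 43.97 CPM in MEF HSP90i libraries, against 14.7, 17.3 and 15.8 CPM in Control libraries (1.49 ± 0.08). HPC-7 had 35.1, 33.8 and 33.2 CPM with HSP90i, against 21.3, 20.96 and 21.1 CPM in Control libraries (0.69 ± 0.08). In K562 the groups overlapped, with 43.01, 42.5 and 42.6 CPM in HSP90i and 27.9, 40.1 and 43.99 CPM in Control libraries (0.19 ± 0.18, not called), and Control library 1 was the low one, with a change of 0.03 ± 0.10 without it.

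ABCG1, which exports sterol to larger lipoproteins, was counted in HPC-7 alone. It had 54.1, 45.1 and 49.7 CPM there with HSP90i, against 23.3, 22.7 and 22.4 CPM in Control libraries (1.12 ± 0.09, adjusted p = 3.18e-06 by edgeR). The gene was listed at 0 in all 6 libraries of K562 and all 6 of MEF. In MEF, whose table lists the same rows as that of HPC-7, a count of 0 allows up to 3 counts in a library, or at most 0.285 CPM, for counting error alone. No such limit is given for K562, as it is not known whether the authors' counting left out reads of this gene.

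Of the LXR receptor genes, Nr1h2, which encodes LXR beta, was higher in both mouse lines. It had 93.7, 83.1 and 91.1 CPM in MEF HSP90i libraries, against 50.1, 46.9 and 48.2 CPM in Control libraries (0.88 ± 0.06). HPC-7 had 121, 106 and 102 CPM with HSP90i, against 71.4, 73.3 and 80.6 CPM in Control libraries (0.55 ± 0.09). Nr1h3, which encodes LXR alpha, had at most 4 counts in any mouse library and was not tested. K562 carried both, at 23.9, 21.5 and 23.6 CPM with HSP90i and 29.9, 21.5 and 21.99 CPM in Control libraries for NR1H2 (−0.09 ± 0.16). NR1H3 had 14.5, 14.9 and 15.1 CPM in HSP90i and 20.96, 14.8 and 14.6 CPM in Control libraries (−0.18 ± 0.18). Neither was called, and both signs turned without Control library 1.

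Set side by side, the 28 tested SREBP targets (the enzymes of both pathways, STARD4 and INSIG1) and the tested LXR targets had medians of −1.65 and 1.12 in HPC-7, −0.99 and 2.26 in MEF, and 0.04 and 0.84 in K562 (log2 fold change, 3 LXR targets in HPC-7 and 2 in the others). SREBP targets minus LXR targets was −2.77 in HPC-7, −3.24 in MEF and −0.80 in K562. No test is given for these medians. In the mouse lines the medians had opposite signs. In K562 both were above 0. The LXR median rests on ABCA1 and MYLIP alone in K562 and in MEF. Arl4c and Lpcat3, LXR targets outside the list, are not part of these medians. Each of them was called in opposite directions in the mouse lines.

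**Figure D4:**
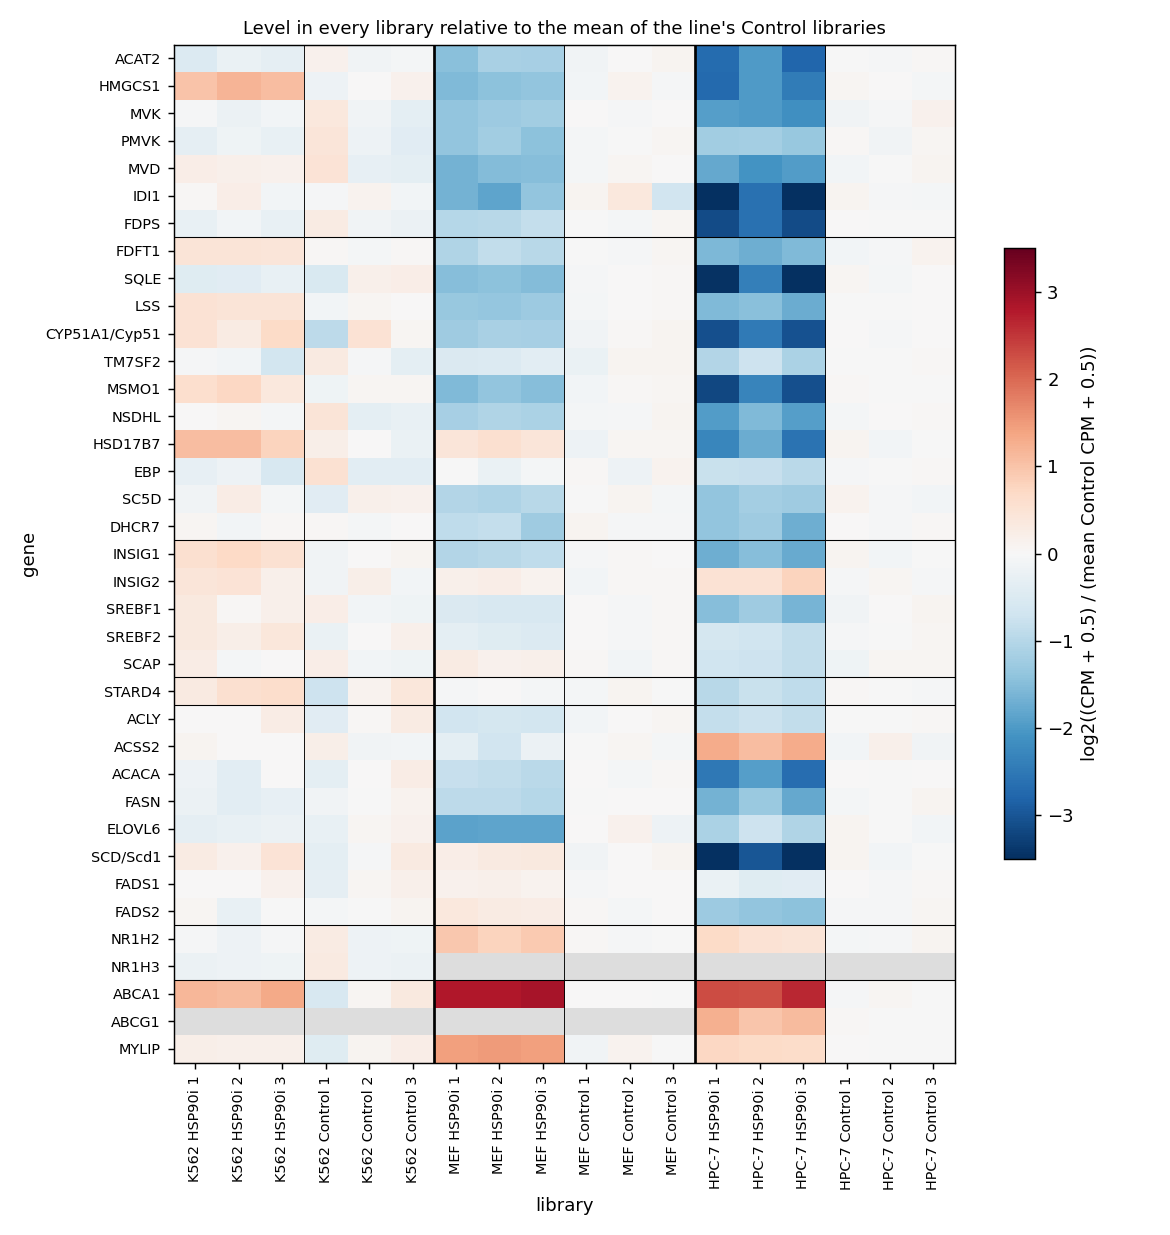
Log2 of the CPM of each gene in each library over the mean of the line's Control libraries, each with 0.5 CPM added; HSP90i stands left of Control in each line, and grey fields mark genes not tested. The blue block of sterol enzymes fills the HSP90i libraries of MEF and HPC-7 and is paler in HPC-7 HSP90i library 2, while ABCA1 is red with HSP90i in all 3 lines. Control library 1 of K562 differs from the other Control libraries in several rows.

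The responses of MEF and HPC-7 were compared in 1 model over the 12 mouse libraries, as the MEF log2 fold change minus that of HPC-7. Of 36 members in the model, 30 were called with a less negative or more positive response in MEF. That is 83.3%, where 25.4% of all tested genes were so called. In the other direction 2 were called, or 5.56%, where 17.8% of all tested genes were. For 21 of the 23 genes called lower in both lines, the fall was deeper in HPC-7. The exceptions were Elovl6, deeper in MEF, and Pmvk, whose difference was not called (0.01 ± 0.13). Line and dose (200 nM in MEF, 50 nM in HPC-7) cannot be told apart in this model, and without 1 of the HPC-7 Control libraries the higher members were 22.

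Scd1 had the largest difference, 4.68 ± 0.26 (adjusted p = 1.02e-08 by the edgeR interaction test). Hsd17b7 followed with 2.85 ± 0.20 and Fdps with 2.15 ± 0.16. Cyp51 differed by 1.82 ± 0.16, Fads2 by 1.79 ± 0.10, Acaca by 1.59 ± 0.19, Scap by 1.08 ± 0.12, Stard4 by 0.98 ± 0.09 and Fads1 by 0.61 ± 0.09. Acss2 differed in the other direction, by −1.55 ± 0.18, as did Elovl6, by −0.79 ± 0.14. The LXR targets were not alike: Mylip differed by 0.92 ± 0.10 (adjusted p = 4.63e-06), while for Abca1 the difference was 0.29 ± 0.24 (adjusted p = 0.445). Abcg1 was in the model, but its difference could not be fitted, as MEF had no counts.

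**Figure D5:**
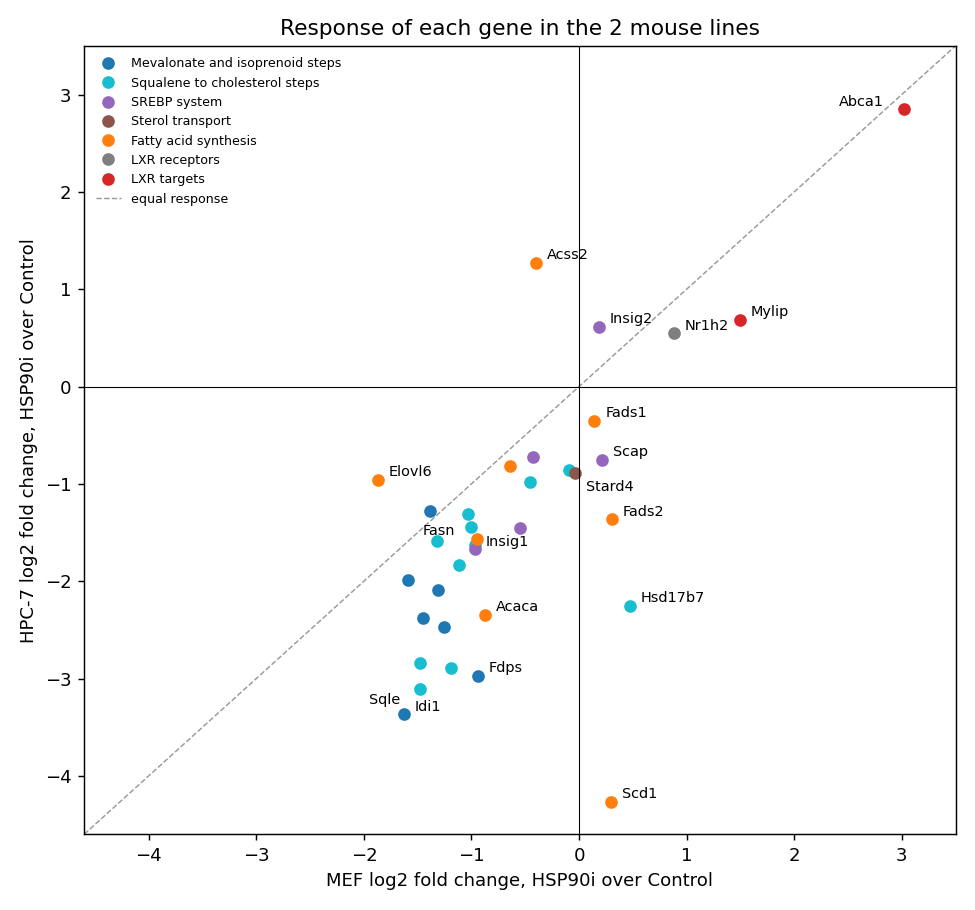
Log2 fold change (HSP90i over Control) of each gene in MEF, on the horizontal axis, and HPC-7, on the vertical axis, coloured by role. The dashed line marks equal responses. Most sterol enzymes lie below it, Scd1 lies farthest below, and Acss2 and Elovl6 lie above.

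Promoter sequences were read for the mouse genes to show which letters known for these regulators lie at their start sites. RefSeq windows of GRCm38.p6, from 250 bases before to 50 bases after a start site, were at hand for 30 of the 37 genes, with 39 windows in all. Abcg1, Fads1, Fdft1, Fdps, Scd1, Sqle and Stard4 had no window and were not searched. The classic SREBP element was searched as TCACNCCAC, the CCAAT box of the partner factor NF-Y as CCAAT, the E-box as CACGTG, and the LXR element as a pair of short sites with any 4 bases between them, either AGGTCA and AGGTCA or GGTTA and CGGTCA, in every case on both strands. The last pair was spelled after the known element of the ABCA1 promoter, and it was added once the Abca1 window had been seen. Capitals mark every match, 5′ to 3′ on the gene's strand. A match describes letters only, not binding.

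Of the 30 members with a window, Hmgcs1 alone held the SREBP element, 137 bases before the start site, beside 4 CCAAT boxes. Of all 27025 genes with windows, 1.44% hold it. An element spelled otherwise or lying outside a window would be missed, so the other genes cannot be said to lack one. Insig1, which moved with Hmgcs1 in all 3 lines, held an E-box and a CCAAT box. Counted by gene, over all windows of each, CCAAT occurred in 22 of the 30 members and in 41.1% of all genes, and CACGTG in 6 of 30 and in 8.09% of all genes. The windows of Hmgcs1 (chr13:119690101-119690400, plus strand) and Insig1 (chr5:28071162-28071461, plus strand) are these.
Hmgcs1: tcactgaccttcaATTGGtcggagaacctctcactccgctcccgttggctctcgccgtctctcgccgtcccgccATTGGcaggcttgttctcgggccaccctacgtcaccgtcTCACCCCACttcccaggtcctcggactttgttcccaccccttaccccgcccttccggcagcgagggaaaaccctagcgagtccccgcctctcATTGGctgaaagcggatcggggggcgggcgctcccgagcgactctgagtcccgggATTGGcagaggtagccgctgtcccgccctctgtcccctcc
Insig1: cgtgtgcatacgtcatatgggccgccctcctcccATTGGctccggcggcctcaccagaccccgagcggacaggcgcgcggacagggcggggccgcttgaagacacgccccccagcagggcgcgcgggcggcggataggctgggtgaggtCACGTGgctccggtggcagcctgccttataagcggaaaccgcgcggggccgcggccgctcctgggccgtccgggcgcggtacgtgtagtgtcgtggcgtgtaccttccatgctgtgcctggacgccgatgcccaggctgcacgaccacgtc

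No member held the pair of AGGTCA sites, which was found in 5 of the 32851 windows (0.0152%). The pair of GGTTA and CGGTCA was found in 4 windows (0.0122%), and 3 of them belong to members: Abca1, at 67 bases before the start site, Fasn, at 225 before, and 1 of the 3 Srebf1 windows, at 182 before. The matched letters were the same in Abca1 and Fasn, while Srebf1 differed within the spacer. These 3 genes are shown because they share the letters and not the response: Abca1 was higher in HSP90i cells of both mouse lines, and Fasn and Srebf1 were lower. The windows of Abca1 (chr4:53159846-53160145, minus strand), Fasn (chr11:120824498-120824797, minus strand) and Srebf1 (chr11:60210422-60210721, minus strand) follow.
Abca1: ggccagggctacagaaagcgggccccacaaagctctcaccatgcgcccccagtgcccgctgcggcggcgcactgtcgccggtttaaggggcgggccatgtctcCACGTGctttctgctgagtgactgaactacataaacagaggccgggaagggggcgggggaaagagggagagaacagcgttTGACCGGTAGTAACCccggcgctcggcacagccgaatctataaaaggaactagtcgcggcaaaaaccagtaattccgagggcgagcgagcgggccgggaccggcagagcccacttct
Fasn: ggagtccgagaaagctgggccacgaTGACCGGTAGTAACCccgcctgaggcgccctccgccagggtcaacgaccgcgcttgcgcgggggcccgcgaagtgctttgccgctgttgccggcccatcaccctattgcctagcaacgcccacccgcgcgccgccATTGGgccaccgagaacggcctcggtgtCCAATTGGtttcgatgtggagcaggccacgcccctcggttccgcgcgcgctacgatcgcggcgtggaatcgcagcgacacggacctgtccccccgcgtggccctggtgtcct
Srebf1: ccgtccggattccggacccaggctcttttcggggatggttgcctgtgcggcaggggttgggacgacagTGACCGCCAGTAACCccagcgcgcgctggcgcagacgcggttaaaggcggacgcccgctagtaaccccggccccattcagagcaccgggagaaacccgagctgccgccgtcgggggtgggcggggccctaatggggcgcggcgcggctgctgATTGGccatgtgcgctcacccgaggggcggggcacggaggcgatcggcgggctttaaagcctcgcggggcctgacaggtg

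Other genes around the pathway were taken from 5 lists: the isoprenoid branch, sterol storage and traffic, SREBP processing, further genes of fatty acid synthesis, and LXR partners and targets. Of their tested genes, 26 were called higher and 26 lower of 66 in MEF, 19 higher and 24 lower of 61 in HPC-7, and 8 higher and 1 lower of 62 in K562. The shares in each direction among all tested genes are those given above. The genes named below were picked by the smallest p of a list in a line, so they do not stand for their lists.

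Of 13 tested genes of sterol storage and traffic, 8 were higher and 4 lower in MEF, and 8 higher and 2 lower in HPC-7. In K562, 2 of 10 were higher and 0 lower. Tmem97, a membrane protein of sterol traffic, followed the enzymes. It had 16.9, 17.8 and 16.6 CPM in MEF HSP90i libraries, against 75.1, 74.9 and 78.6 CPM in Control libraries (−2.16 ± 0.06, adjusted p = 1.67e-08 by edgeR), and was at −2.61 ± 0.19 in HPC-7. In K562 TMEM97 was higher, with 115, 125 and 109.5 CPM in HSP90i and 76.6, 58.4 and 62.4 CPM in Control libraries (0.82 ± 0.14). The groups were apart in each line. Gramd1b, which carries cholesterol from the cell surface to the endoplasmic reticulum, went the other way, with 145, 140.0 and 159.6 CPM in HSP90i and 36.5, 35.8 and 33.7 CPM in Control libraries of HPC-7 (2.07 ± 0.08). It was at 1.94 ± 0.11 in MEF. Soat1, which stores cholesterol as esters, had 43.2, 45.8 and 38.98 CPM in MEF HSP90i libraries, against 99.3, 97.7 and 99.3 CPM in Control libraries (−1.21 ± 0.06). The MEF response of Soat1 minus its HPC-7 response was −1.12 ± 0.11 (adjusted p = 1.4e-06 by the edgeR interaction test).

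In the isoprenoid branch, 7 of 12 genes were lower in each mouse line, with 3 higher in MEF and 1 higher in HPC-7. Pdss1, which builds the side chain of coenzyme Q, was lower in all 3 lines, at −2.80 ± 0.16 in MEF, −2.38 ± 0.25 in HPC-7 and −1.27 ± 0.17 in K562. Lbr, a nuclear envelope protein with sterol reductase activity, had 24.3, 22.1 and 24.4 CPM in MEF HSP90i libraries, against 100.3, 102 and 103 CPM in Control libraries (−2.10 ± 0.06). NUS1, a subunit of the dolichol-making enzyme, was higher in K562 (0.73 ± 0.15). Fntb and Rabggtb, subunits of the enzymes that attach farnesyl and geranylgeranyl groups to proteins, were at −1.39 ± 0.12 and −1.27 ± 0.13 in HPC-7.

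Among the SREBP processing genes, Erlin1, an endoplasmic reticulum protein that binds cholesterol, had 27.1, 27.3 and 25.7 CPM in MEF HSP90i libraries, against 74.6, 86.1 and 83.4 CPM in Control libraries (−1.60 ± 0.07), and was at −0.89 ± 0.10 in HPC-7. The site-1 protease gene Mbtps1, whose product cuts SREBP, was slightly higher in MEF (0.33 ± 0.04). Scd2, the main desaturase of many mouse cells, was at −1.43 ± 0.08 in HPC-7 and −0.52 ± 0.07 in MEF. Hsd17b12, a reductase of fatty acid elongation, was at −1.83 ± 0.16 in HPC-7 and −0.95 ± 0.06 in MEF, and Lpin1, a phosphatidate phosphatase, at 1.30 ± 0.09 in HPC-7 and 0.36 ± 0.12 in MEF. ELOVL5 and ME1, an elongase and the malic enzyme, were higher in K562 (0.77 ± 0.19 and 0.70 ± 0.19).

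Arl4c and Lpcat3, LXR targets outside the list, did not move together. Arl4c had 14.5, 10.2 and 12.7 CPM in HPC-7 HSP90i libraries, against 3.88, 3.17 and 3.34 CPM in Control libraries (1.84 ± 0.17), and in MEF 31.6, 31.2 and 27.1 CPM with HSP90i, against 55.6, 57.3 and 59.6 CPM in Control libraries (−0.94 ± 0.07). Lpcat3, a phospholipid-remodelling enzyme, was at −0.62 ± 0.07 in HPC-7 and 0.32 ± 0.06 in MEF. Each of the pair was called in opposite directions in the mouse lines, and the MEF response minus the HPC-7 response was −2.66 ± 0.18 for Arl4c and 1.05 ± 0.08 for Lpcat3 (adjusted p = 7.35e-08 and 2.73e-07 by the edgeR interaction test). The LXR partner gene Rxra was lower in MEF (−0.51 ± 0.05).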

How the data were processed

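RNA-seq was analysed in HSP90i and Control libraries of K562, MEF and HPC-7, 3 per group, grouped by sample title. The authors deposited whole-number counts for each gene. Trim Galore, TopHat2 2.0.13, Picard and featureCounts are named without a role in the submitters' processing notes. Whether counting used strand was not stated, so overlapping and antisense genes could share reads.

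Genes were filtered with filterByExpr, scaled with TMM and tested with edgeR 4.0.16 (R 4.3.3, quasi-likelihood, Benjamini-Hochberg, 0.05) over all genes of a line: 11703 in HPC-7, 12340 in MEF and 13456 in K562. The mouse lines were compared by an interaction term over 13720 genes. CPM are relative to tested genes, within a line. The tables of the lines were scaled separately, so levels are not compared between lines. The procedure was tested on simulated data.

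All genes may be named; values in every library are given for the smallest p of each role and for the regulators and LXR genes, and others were added. The members and lists were chosen with earlier results of these data known. Alternatives were RLE and upper quartile factors, library size alone, no filter, at least 1 CPM in 3 libraries, DESeq2 1.42.0, a replicate block, a joint mouse fit and each library left out. The K562 ChIP-seq peaks were not used here. Figures were drawn with matplotlib 3.10.9.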

Additional observations from a re-analysis of the deposited data

Results flagged for a closer look

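Several responses differed between the mouse lines by the edgeR interaction test (MEF log2 fold change minus HPC-7 log2 fold change). Of the genes called in opposite directions, Scd1 differed by 4.68, Hsd17b7 by 2.85, Fads2 by 1.79, Acss2 by −1.55, Scap by 1.08 and Fads1 by 0.61. Among the others, the smallest p belonged to Fdps, which differed by 2.15, Cyp51 by 1.82, Acaca by 1.59, Stard4 by 0.98 and Mylip by 0.92. Elovl6 differed by −0.79 and, outside the listed genes, Arl4c by −2.66 and Lpcat3 by 1.05. Line and dose cannot be told apart in them.

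In 7 genes every K562 HSP90i library lay above every Control library, while in mouse cells every HSP90i library lay below. The K562 log2 fold change was 1.10 for HMGCS1, 0.44 for FDFT1, 0.47 for LSS, 0.58 for MSMO1, 0.60 for INSIG1 and 0.32 for SREBF2, each against both mouse lines, and 1.02 for HSD17B7 against HPC-7. SREBF2 was not called in K562, and the share of all genes with such a pattern was not counted. The differences between K562 and the mouse lines were not tested, as the tables list genes of 2 species.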

How the results depend on the processing

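Calls in HPC-7 were 6 higher and 30 lower under every alternative run, and calls in MEF were 7 to 9 higher and 23 or 24 lower. K562 depended on its libraries and scaling. Higher members were 4 with library size alone and 4 with upper quartile factors, 5 with no filter on low counts, and 1 to 9 with 1 library left out, and lower members were 0 to 3 with 1 library left out. Library size alone moved the median of all K562 genes to −0.13. SREBP targets minus LXR targets ranged from −1.01 to −0.57 in K562 and from −3.28 to −3.21 in MEF with 1 library left out. Signs turned in genes that were not called: in MEF Ebp was at 0.0062 with upper quartile factors and 0.017 in the joint fit, and Stard4 at 0.070 and 0.083 in these and at −0.055 to 0.028 with 1 library left out. In K562, NR1H2 ranged from −0.18 to 0.083 and NR1H3 from −0.27 to 0.017 with 1 library left out. For these the cause was not tested.

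The labels do not say whether the replicate numbers pair the libraries. Correlations of same-numbered libraries had both signs in MEF (0.34, −0.31 and −0.32) and in HPC-7 (−0.07, 0.009 and −0.15). In K562 they were 0.32, 0.05 and 0.50, while those of differently numbered libraries ran from −0.42 to 0.17. In MEF, differently numbered libraries reached 0.48 (HSP90i 2 with Control 3) and 0.33 (HSP90i 3 with Control 2), and ran down to −0.40 (HSP90i 2 with Control 1). Whether the K562 libraries are paired, or those of MEF under other numbers, is thus not settled. The replicate block joined same-numbered libraries only. With the replicate block K562 had 5 members higher and 0 lower, as FDFT1 and LSS (adjusted p = 0.0582 and 0.0523) missed the threshold, and MEF had 9 higher and 23 lower, without Acss2 (0.0560). It changed no other call of a member. Over all K562 genes the replicate block called 872 higher and 938 lower, and DESeq2 called 943 higher and 968 lower, against 688 and 803. The interaction gave 22 to 30 members higher in MEF, the fewest without an HPC-7 Control library, where the median difference over all genes was near −0.10, against 0.11 with all libraries.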
